A study of Mus musculus with 4 samples.

Results

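Cholesterol is built from acetyl-CoA by a chain of enzymes, and 8 of their genes are described here: Hmgcs1, Mvk, Mvd, Fdps, Fdft1, Sqle, Lss and Cyp51. They were taken by gene symbol from a table of 25265 genes, and each symbol matched 1 row. The study compared whole testes of C57BL/6 mice at postnatal day 56, with 2 control libraries and 2 that carry the label Ythdf2-vKO, called vKO-labelled here. The series title describes germ cell-specific mutants of Ythdf2, whose protein binds N6-methyladenosine in RNA and promotes the decay of bound transcripts. RNA was depleted of ribosomal RNA before directional libraries were made. The driver of the deletion, the genotype of the controls, the deleted segment and the number of animals behind each library are not given in the sources used here. The p-values therefore measure the spread between these libraries, which may be technical.

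The first part of the chain, from Hmgcs1 to Fdps, makes isoprenoid units through mevalonate. Fdft1 joins farnesyl diphosphate into squalene and so commits it to sterols, and Sqle, Lss and Cyp51 carry squalene past lanosterol. The product of CYP51 belongs to the meiosis-activating sterols, which are found in the testis, and cholesterol itself feeds membranes in all cells and testosterone in Leydig cells. In most cells the genes of the chain are driven together by SREBP2, a transcription factor released from the endoplasmic reticulum when sterols are low.

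Total counts ran from 24862518 to 29561182 per library. The targeted gene was examined first. Ythdf2 stood at 51.0 and 53.5 CPM in the controls against 66.3 and 67.0 CPM in the vKO-labelled libraries, where CPM are counts scaled by TMM to a common library size. The log2 fold change of 0.35 (SE 0.13) had an adjusted p of 0.238 by edgeR's quasi-likelihood test, so the transcript was not lower under the label vKO, and each group keeps the name its label gives. Both replicates of each group differed by more than sampling noise (chi-square per degree of freedom 21.2 for control and 8.41 for vKO), so no libraries were merged.

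None of the 8 genes passed the test between the labels, and all 8 had passed the filter on low counts. With p-values of edgeR's quasi-likelihood test adjusted by Benjamini-Hochberg over 21132 genes, 0 of the 8 had an adjusted p under 0.05, against 0.393% of all genes tested, and 0 of the 8 had an unadjusted p under 0.05, against 14.1%. A DESeq2 Wald test on the same counts also called 0 of the 8, against 1.32% of the genes to which it gave an adjusted p. The 8 adjusted p-values lay between 0.472 and 0.968. Their log2 fold changes, vKO-labelled over control, ran from -0.11 for Fdft1 to 0.35 for Mvk, with a median of 0.05, beside a median of 0.0027 over all genes tested. An absolute log2 fold change under 0.2 was found for 6 of the 8 (75%) and for 48.7% of all genes tested. These shares were not matched for level. The SE was 0.12 to 0.14 for Fdft1, Sqle, Cyp51 and Hmgcs1, against a median of 0.20 over all genes tested. Only Mvd (0.23) and Fdps (0.29) lay above that median. The 95% intervals bound what these libraries could hide. Over the 8 genes, the lowest bound was a 0.664-fold level (Fdps) and the highest a 1.71-fold level (Mvk), so a 2-fold difference lay outside every interval. In whole testis, fewer cells of a type and less RNA per cell cannot be told apart.

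Sequence just upstream of the genes is shown first for 3 of them, since it holds the letters that the known regulators of this pathway read. RefSeq promoter windows on GRCm38.p6, from 250 bases before to 50 after a gene start, were found for 5 of the 8 genes: Hmgcs1, Mvk, Mvd, Lss and Cyp51. They were searched on both strands for TCACNCCAC (a sterol regulatory element, read by SREBP), CCAAT (the CCAAT box, read by NF-Y), GGGCGG (the GC box, read by SP1) and TGACG (the core of a cyclic AMP response element, read by CREB and by CREM, which acts in spermatids). No match of a motif overlapped a match of another in these 5 windows. The stretches below end before the RefSeq and the GENCODE M21 gene start, run 5′ to 3′ on the gene's strand, and have the matches in capitals. Of the 5 genes with a window, Hmgcs1 is shown as the 1 that matched the letters TCACNCCAC. Other forms of the sterol regulatory element were not searched. Mvk is shown for its CCAAT boxes and for its fold change, which did not pass the test, and Cyp51 for its response element core. Whether these letters bear on any fold change was not tested.
Hmgcs1, chr13:119690151-119690350, plus strand: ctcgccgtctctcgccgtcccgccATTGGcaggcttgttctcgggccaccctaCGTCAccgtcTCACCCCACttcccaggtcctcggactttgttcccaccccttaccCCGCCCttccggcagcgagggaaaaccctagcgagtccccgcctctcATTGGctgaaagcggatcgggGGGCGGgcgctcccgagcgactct
Mvk, chr5:114444069-114444268, plus strand: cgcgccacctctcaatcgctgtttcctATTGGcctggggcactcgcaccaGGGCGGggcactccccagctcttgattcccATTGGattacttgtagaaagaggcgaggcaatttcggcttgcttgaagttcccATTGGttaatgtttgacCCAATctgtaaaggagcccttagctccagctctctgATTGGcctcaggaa
Cyp51, chr5:4104747-4104897, minus strand: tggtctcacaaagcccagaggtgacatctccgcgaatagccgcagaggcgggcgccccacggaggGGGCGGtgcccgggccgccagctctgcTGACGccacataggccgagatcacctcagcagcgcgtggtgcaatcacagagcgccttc

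All 5 windows held both a CCAAT box and a GC box, which was the case for 12.8% of the 32851 RefSeq promoter windows of mouse genes. A CCAAT box alone was found in 37.4% of those windows and a GC box in 35.7%. Over the whole windows Mvk held 5 CCAAT boxes, Hmgcs1 4, Mvd 2, and Lss and Cyp51 1 each. The stretches above are shorter than the windows and do not show every match. The CCAAT box of Cyp51, at -29 from the gene start, lies past the end of its stretch. Those of Hmgcs1 at -237 and at 11 also lie outside the stretch shown. The sterol regulatory element letters were found in Hmgcs1, at 137 bases before the start, and in 1.24% of all windows. The core of a cyclic AMP response element was found in Hmgcs1 and Cyp51, and in 20.8% of all windows. Matches are letters in a window and not sites at which a factor was measured. Among the other enzymes of the chain, 11 genes had 14 windows. Of these 11 genes, 9 held a CCAAT box and a GC box together in at least 1 window. The 12.8% over all promoters counts windows and not genes.

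The 8 genes differed far more from each other than between the labels. Levels were set side by side as CPM per kb of the longest protein-coding transcript in GENCODE M21, as mean ± SD over the 4 libraries. Fdft1 was the highest at 126 ± 6.53, followed by Sqle at 40.6 ± 2.1, Cyp51 at 27.8 ± 0.972 and Hmgcs1 at 18.0 ± 1.86. A gap then separated Mvk at 4.62 ± 0.702, Lss at 3.09 ± 0.3, Mvd at 2.64 ± 0.277 and Fdps at 1.8 ± 0.151. Neighbours in this order did not overlap over the 4 libraries, except Lss and Mvd, whose order held in 3 of the 4. The length used matters for some of the order. Per kb of all annotated exons Cyp51 (24.7) stood above Sqle (20.2) and Mvd (2.5) above Lss (1.34), while Fdft1 (110) stayed first and Fdps (0.593) last. Fdft1 alone held 57.5% to 61.0% of the summed CPM of the 8 genes in a library, Sqle 13.7% to 15.1% and Cyp51 13.4% to 14.5%.

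**Figure D1:**
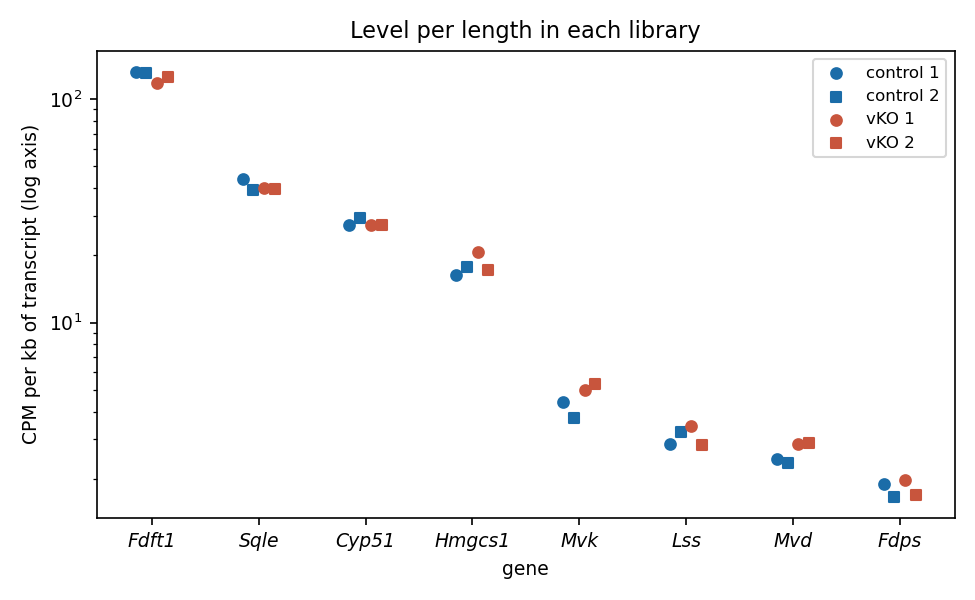
CPM per kb of the longest protein-coding transcript (log axis) for each of the 8 genes, ordered by mean, with 1 point per library (blue control, red labelled vKO). Points of a gene lie close together in all 4 libraries, and the genes range from 126 for Fdft1 down to 1.8 for Fdps.

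The low place of Fdps, which makes the farnesyl diphosphate that the sterol and protein prenylation branches share, carries a limit. Its open reading frame of 1263 bases is matched at 90% identity or more, over at least 200 bases, by 5 annotated processed pseudogenes. The closest, Gm3571, is 98.9% identical over 1062 bases. The annotated gene Gm43738 also lies over Fdps on the same strand and shares 1124 of its 4208 exon bases (26.7%). None of these copies was among the genes analysed here, and how reads with several matches were counted is not given in the sources used here. The level of Fdps is therefore uncertain. Fdft1 has the processed pseudogene Gm6781, 97.4% identical over 1249 bases, but its counts were only 14, 10, 17 and 4 in the 4 libraries. Mvk, Mvd, Sqle, Lss and Cyp51 had no such match outside their own gene. On the opposite strand, Ctsb covers 18.3% of the exon bases of Fdft1, Gm48342 12.1% of those of Hmgcs1, Akap9 3.76% of those of Cyp51 and 4930483K19Rik 3.53% of those of Lss, and whether counting used strand is not given.

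Among the mevalonate genes, Mvk and Mvd had the highest fold changes of the 8 in the fit without a GC offset. Hmgcs1 (ENSMUSG00000093930, plus strand of chromosome 13, 119690379 to 119708260 in GRCm38) encodes the cytosolic synthase that makes HMG-CoA. Its counts were 1320 and 1844 for the controls against 1913 and 1614 for the vKO-labelled pair, or 56.5, 61.5, 71.5 and 59.8 CPM in the same order. The second vKO library lay between both controls. The log2 fold change was 0.15 (SE 0.14, 95% interval -0.14 to 0.45, adjusted p = 0.678 by edgeR), and leaving out vKO-labelled replicate 1 gave 0.02, leaving out replicate 2 gave 0.27.

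Mvk (ENSMUSG00000041939, plus strand of chromosome 5, 114444269 to 114460591) encodes mevalonate kinase. Its levels were 7.32 and 6.2 CPM in the controls against 8.29 and 8.86 CPM in the vKO-labelled pair, from 171, 186, 222 and 239 counts. The groups did not overlap, yet the log2 fold change of 0.35 (SE 0.20, interval -0.08 to 0.78) had an adjusted p of 0.472 by edgeR. Mvd (ENSMUSG00000006517, minus strand of chromosome 8, 122433601 to 122443422) encodes the decarboxylase that yields isopentenyl diphosphate. From 101 and 124 counts for the controls against 135 and 137 for the vKO-labelled pair, it reached 4.32, 4.14, 5.04 and 5.08 CPM. Here too both vKO libraries lay above both controls, with a log2 fold change of 0.26 (SE 0.23, interval -0.23 to 0.75, adjusted p = 0.671 by edgeR).

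Mvk and Mvd were also the members with the most GC-rich transcripts, 56.3% and 59.0% over the longest transcript, against 43.1% to 51.8% for the other 6. With a GC offset, which removes each library's trend with GC content, the log2 fold change was 0.207 for Mvk and 0.0588 for Mvd. Under that offset Hmgcs1 stood above Mvk at 0.221, and Lss above Mvd at 0.0617. Counting error alone was an SD of 0.10 on the log2 scale for Mvk and 0.13 for Mvd. The observed SD within groups was 0.13 for Mvk and 0.03 for Mvd. Fdps (ENSMUSG00000059743, minus strand of chromosome 3, 89093588 to 89101959) had only 61 and 69 counts for the controls against 73 and 63 for the vKO-labelled pair. Its 2.61, 2.3, 2.73 and 2.34 CPM overlapped between the groups, and the log2 fold change was 0.05 (SE 0.29, interval -0.59 to 0.68, adjusted p = 0.968 by edgeR). That interval was the widest of the 8.

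**Figure D2:**
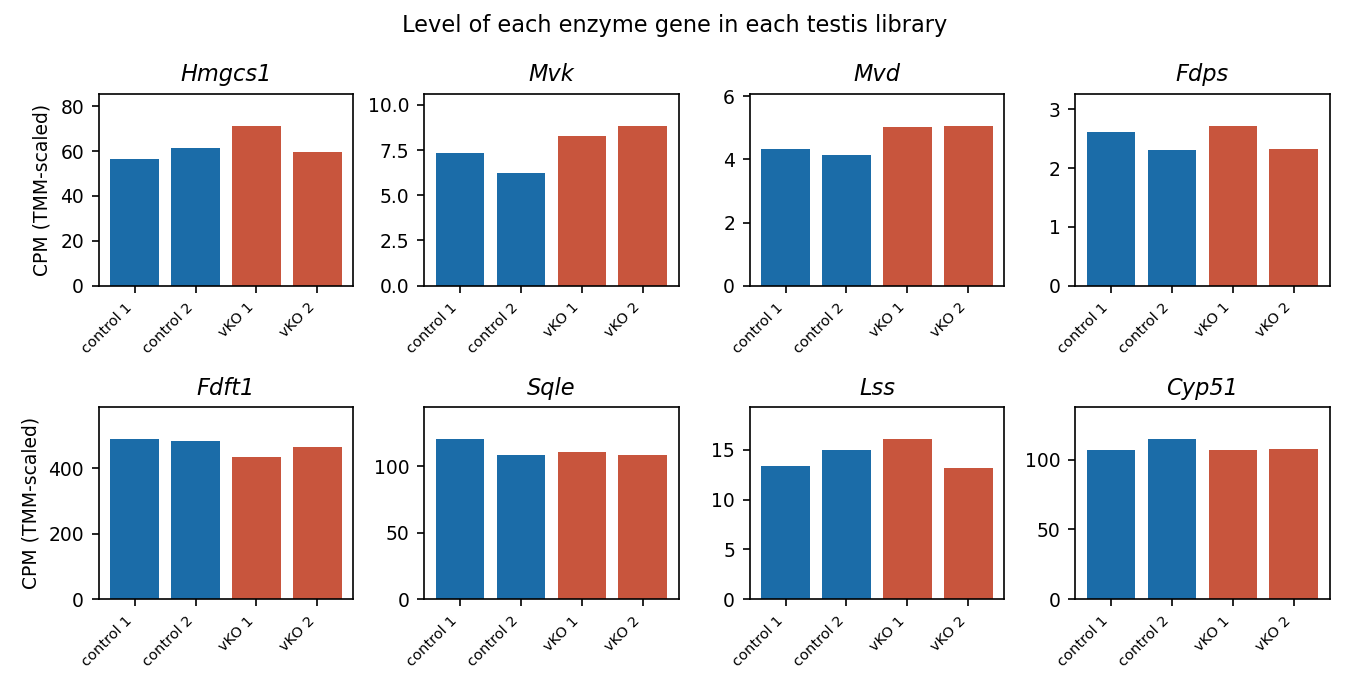
TMM-scaled CPM of each of the 8 genes, 1 panel per gene with its own axis from 0 and 1 bar per library (blue control, red labelled vKO). Only Mvk, Mvd and Fdft1 have groups that do not overlap, the first pair with higher and Fdft1 with lower bars under the label vKO.

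Among the squalene and sterol genes, Fdft1, Sqle and Cyp51 were the best counted of the 8 and had the narrowest intervals, while Lss had fewer counts than Hmgcs1 and a wider interval. Fdft1 (ENSMUSG00000021273, minus strand of chromosome 14, 63145150 to 63179578), squalene synthase, had 11418 and 14430 counts for the controls against 11627 and 12495 for the vKO-labelled pair. Scaled, this gave 488 and 481 CPM against 434 and 463 CPM, so both vKO libraries lay below both controls. The log2 fold change was -0.11 (SE 0.12, interval -0.36 to 0.14, adjusted p = 0.728 by edgeR). In all, groups did not overlap in 3 of the 8 genes (37.5%). This share was no higher than the 45.3% found over all genes tested.

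Sqle (ENSMUSG00000022351, plus strand of chromosome 15, 59315077 to 59331192) encodes squalene epoxidase, a rate-limiting enzyme of the sterol part of the chain. It stood at 121 and 109 CPM in the controls against 111 and 109 CPM in the vKO-labelled pair, from 2821, 3253, 2961 and 2931 counts. Control replicate 1 was the highest and the other three were close together. The log2 fold change was -0.06 (SE 0.12, interval -0.33 to 0.20, adjusted p = 0.872 by edgeR).

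Lss (ENSMUSG00000033105, plus strand of chromosome 10, 76531588 to 76557138) encodes the cyclase that forms lanosterol. It stood at 13.3 and 15.04 CPM in the controls against 16.1 and 13.2 CPM in the vKO-labelled pair, from 312, 451, 431 and 356 counts. The highest and the lowest value were both under the label vKO, and the SD within groups of 0.17 on the log2 scale was the largest of the 8. The log2 fold change was 0.04 (SE 0.17, interval -0.33 to 0.42, adjusted p = 0.947 by edgeR). Cyp51 (ENSMUSG00000001467, minus strand of chromosome 5, 4081145 to 4104746) encodes the lanosterol demethylase. Its counts were 2505 and 3443 for the controls against 2863 and 2901 for the vKO-labelled pair. The 4 levels of 107, 115, 107 and 108 CPM were nearly level, with a log2 fold change of -0.05 (SE 0.12, interval -0.31 to 0.21, adjusted p = 0.904 by edgeR).

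In the authors' deposited table the log2 fold changes of the 8 genes ran from -0.11 for Fdft1 to 0.34 for Mvk. The lowest adjusted p there, from a Wald test, was 0.662, for Mvk. Of the genes with an adjusted p in that table, 1.32% had a value under 0.05. The deposited fold changes and adjusted p-values of the 8 equal those of the DESeq2 Wald test run here. They are therefore not a separate result. The sum of the 8 genes was 800 and 794 CPM in the controls against 756 and 769 CPM in the vKO-labelled pair, a level set mainly by Fdft1.

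Other enzymes of the chain are given for 11 genes, all of which were tested. By edgeR's quasi-likelihood test 0 of the 11 were called higher and 0 lower under the label vKO, against 0.279% and 0.114% of all genes tested, and DESeq2 called 0. At an unadjusted p under 0.05 there was 1 of the 11, against 14.1% of all genes tested. The median log2 fold change of the 11 was 0.07, with 7 of 11 above 0, and it was below 0 without control replicate 2 (-0.06) and without vKO-labelled replicate 1 (-0.04).

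The gene with the lowest unadjusted p was Dhcr7, which makes cholesterol from its immediate precursor 7-dehydrocholesterol. It stood at 9.88 and 8.24 CPM in the controls against 15.5 and 12.2 CPM in the vKO-labelled pair, so both vKO libraries lay above both controls. Its log2 fold change was the highest of these enzymes at 0.62 (SE 0.19, interval 0.20 to 1.03, unadjusted p = 0.0066, adjusted p = 0.181 by edgeR), so it did not pass. By edgeR it passed with the replicate number as a block (adjusted p = 0.0373) and with GC offset and block combined (adjusted p = 0.0361). Calls over all genes also rose there, from 59 higher and 24 lower. They were 627 and 390 with the block, and 625 and 702 with both. The log2 fold change of Dhcr7 was 0.74 without control replicate 1 and 0.44 without vKO-labelled replicate 1. Pmvk, the kinase between the steps of Mvk and Mvd, had the lowest value of the list at -0.31 (SE 0.16, adjusted p = 0.413 by edgeR). Whether Dhcr7 differs in response from the 8 genes was not tested.

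**Figure D3:**
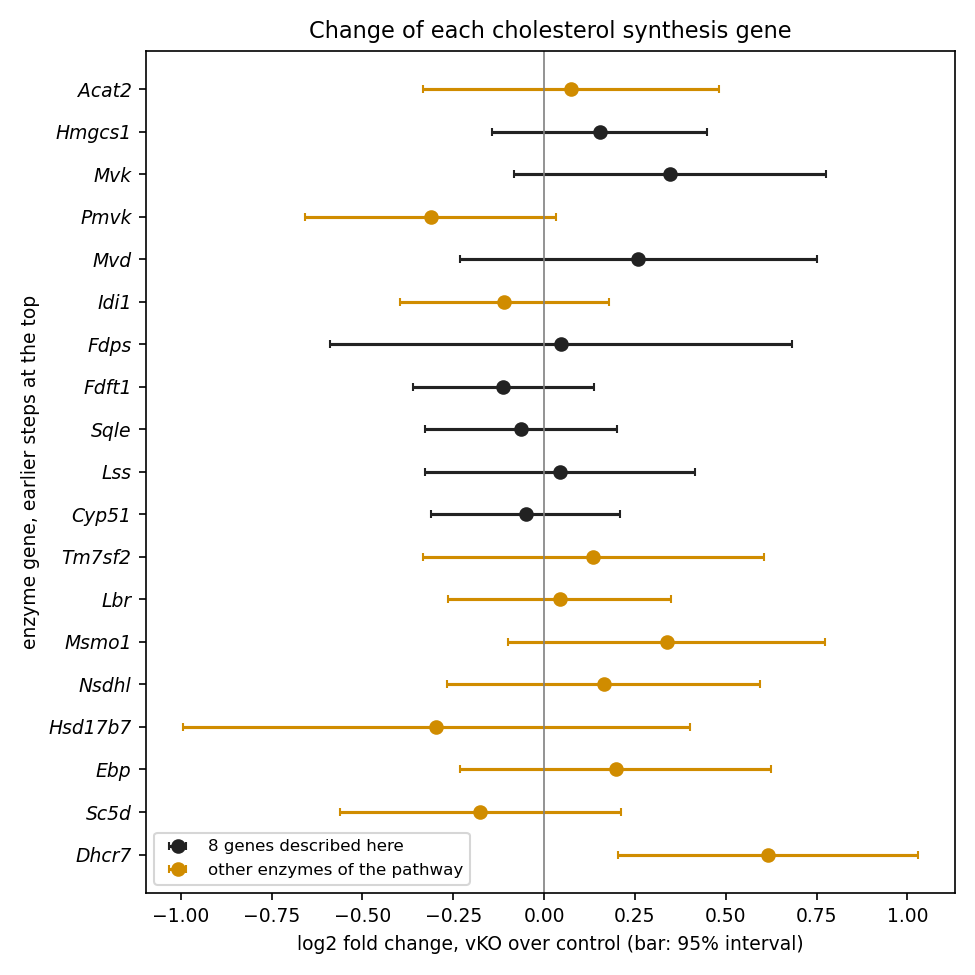
Log2 fold change (vKO-labelled over control) with its 95% interval for the 8 genes (black) and 11 other enzymes of cholesterol synthesis (ochre), with earlier steps at the top. The interval includes 0 for each of the 8 genes, while that of Dhcr7 lies above 0.

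Levels of cell type markers were read in the same libraries and stand beside these values. Sertoli cell markers summed to 1106.5 and 1154.2 CPM in the controls and to 1573 and 1394 CPM in the vKO-labelled pair. Clu alone held 658, 715, 934 and 801 CPM of these sums, in the same order. The list had 11 of 11 log2 fold changes above 0 and a median of 0.44. Of these 11, edgeR called 1 higher, Wt1, a transcription factor of Sertoli cells named after its value was seen, at 31.3 and 32.8 CPM in the controls against 54.2 and 50.7 CPM in the vKO-labelled pair. This amounts to 0.71 on the log2 scale (SE 0.13), with an adjusted p of 0.0418 by edgeR and of 9.47e-06 to 0.338 over its alternatives, and the call was lost without either vKO-labelled library and without robust estimation (adjusted p = 0.0501). DESeq2 called 3 of the 10 Sertoli cell markers to which it gave an adjusted p. Over all genes, edgeR called 0.279% of those tested higher, and DESeq2 called 1.32% of those with an adjusted p. In the other 8 marker lists edgeR and DESeq2 each called 0. At an unadjusted p under 0.05 by edgeR, 7 of 11 Sertoli cell, 4 of 8 Leydig cell and 3 of 12 spermatogonia markers were higher. So were 1 of 8 macrophage and 1 of 5 endothelial cell markers, while 5 of 10 elongating spermatid markers were lower. The spermatocyte, round spermatid and peritubular myoid lists had 0. Over all genes tested the share was 14.1%.

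Leydig cell markers summed to 301 and 365 CPM in the controls against 478 and 357 CPM in the vKO-labelled pair, so the groups overlapped, with 7 of 8 log2 fold changes above 0 and a median of 0.38. Spermatogonia markers summed to 155 and 153 CPM against 189 and 170 CPM, with 11 of 12 above 0 and a median of 0.25. Endothelial cell markers had sums of 33.3 and 22.6 CPM beside 41.8 and 35.6 CPM, with 4 of 5 tested above 0 and a median of 0.43. Vwf alone held 26.1, 14.2, 30.8 and 23.5 CPM of these sums. On the other side, elongating spermatid markers summed to 12871 and 10651 CPM in the controls and to 10019 and 10336 CPM in the vKO-labelled pair, with 1 of 10 above 0 and a median of -0.27. Spermatocyte markers had overlapping sums of 953 and 1134 CPM beside 954 and 920 CPM, with 1 of 9 above 0 and a median of -0.16. The medians were 0.07 for round spermatid, 0.04 for macrophage and -0.05 for peritubular myoid cell markers. No tested marker of the 9 lists was at 0 in any library. The part of these markers in the values of Dhcr7 or of the 8 genes was not tested.

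Genes that sense sterols or control the chain were listed next, and 0 of 11 were called by edgeR and 0 by DESeq2, beside 0.393% of all genes tested by edgeR. At an unadjusted p under 0.05 there was 1 of the 11, against 14.1% of all genes tested. This was Srebf1, the SREBP gene tied mainly to fatty acid synthesis, at 12.02 and 10.7 CPM in the controls against 18.2 and 13.8 CPM in the vKO-labelled pair. Its log2 fold change of 0.49 (SE 0.18) had an adjusted p of 0.249 by edgeR, and it stood at 0.31 with the GC offset and at 0.28 without vKO-labelled replicate 1. Srebf2, which encodes SREBP2 and is named after its value was seen, stood at 0.04 (SE 0.14, adjusted p = 0.935 by edgeR) and took either sign over the alternatives. The lowest value was that of Insig2, whose protein holds SREBP in the endoplasmic reticulum, at -0.28 (SE 0.13, adjusted p = 0.362 by edgeR). The median of the list was 0.08, and with the GC offset -0.04.

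Of 14 genes for cholesterol uptake, storage and efflux, 13 were tested. By edgeR 0 were called, beside 0.393% of all genes tested. An unadjusted p under 0.05 was found for 2 (Lipa and Abca1), beside 14.1% of all genes tested. DESeq2 called 0 of the 11 to which it gave an adjusted p. The median log2 fold change was 0.23, with 10 of 13 above 0, and it was 0.08 under the GC offset and 0.03 without vKO-labelled replicate 1. The highest was Lipa, the lysosomal lipase that frees cholesterol from its esters, at 5.52 and 5.94 CPM in the controls against 9.49 and 9.64 CPM in the vKO-labelled pair (log2 fold change 0.74, SE 0.19, adjusted p = 0.128 by edgeR). Lipa passed with the replicate number as a block (adjusted p = 0.0303 by edgeR). That setting called 627 genes higher and 390 lower, against 59 and 24 without it. Abca1, which exports cholesterol to lipoproteins and is named after its value was seen, stood at 0.60 on the log2 scale (SE 0.16), with an adjusted p of 0.128 by edgeR. It passed with the block (adjusted p = 0.00842) and stood at 0.37 without vKO-labelled replicate 1 (adjusted p = 0.853). Stard4, a cytosolic sterol carrier, was lowest at -0.28 (SE 0.24, adjusted p = 0.663 by edgeR), and with 1 library left out it ran from -0.59 (without vKO-labelled replicate 1) to -0.04 (without vKO-labelled replicate 2).

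The mean profile of the 8 genes over the 4 libraries, in centred log2 CPM, ran only from -0.05 to 0.08, while single genes ranged more widely, Mvk from -0.29 to 0.22. Among 10347 other genes with a mean of at least 10 CPM, the 5 with the nearest profile by Euclidean distance were Slc52a2 (0.014), Oxr1 (0.0151), 4930432J09Rik (0.0182), Hp1bp3 (0.024) and Tmem135 (0.0242), in log2 units over 4 libraries. These 5 genes likewise varied little between libraries, which follows from their being chosen as nearest to a nearly flat profile.

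How far each fold change depends on the processing is shown for all 8 genes. Under 14 alternatives for each gene, 112 values in all, none passed the threshold and the lowest adjusted p was 0.245, for Hmgcs1 when GC offset and replicate block were combined. Mvk, Mvd and Hmgcs1 stayed above 0 and Fdft1 below 0 in each alternative. Fdps, Sqle, Lss and Cyp51 took either sign. The alternatives refit the same libraries, and leaving out robust estimation did not change the fold changes, so a kept sign does not establish a direction. Hmgcs1 fell to 0.02 without vKO-labelled replicate 1, and Mvd to 0.06 with the GC offset. With all libraries the interval included 0 for each of the 8 genes, so no direction is given for any of them.

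**Figure D4:**
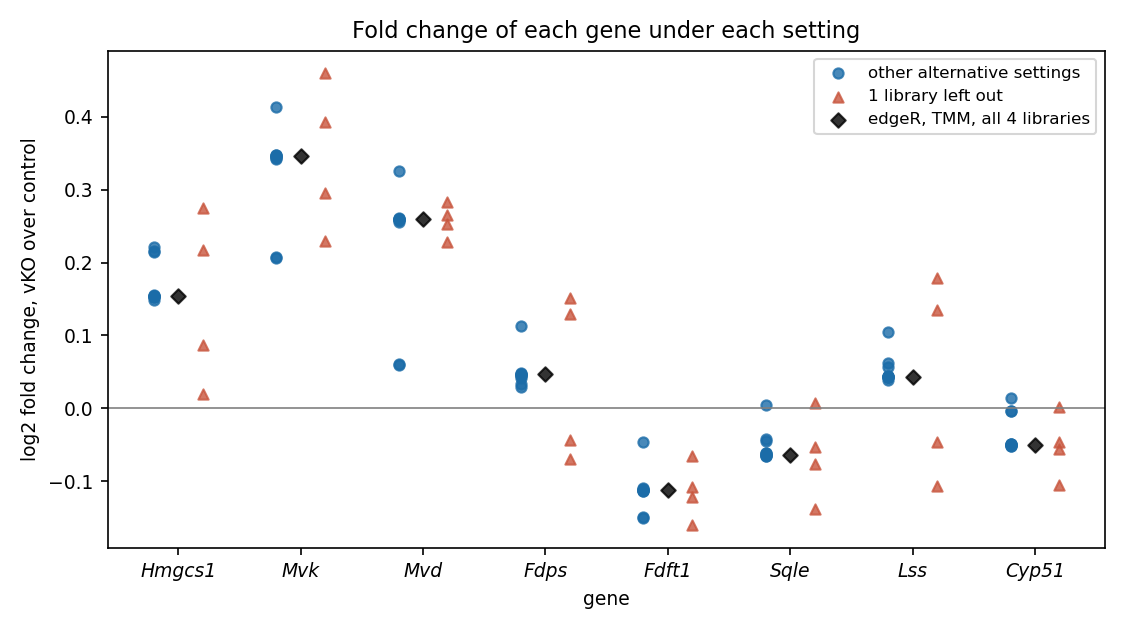
Log2 fold change of each of the 8 genes (vKO-labelled over control) with all 4 libraries (black diamond), under other scalings, filters, tests and offsets (blue circles) and with 1 library left out (red triangles). Hmgcs1, Mvk, Mvd and Fdft1 keep their side of 0, while Fdps, Sqle, Lss and Cyp51 cross it.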

How the data were processed

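The authors deposited 1 table of raw read counts per gene and library, with their mean normalized count (a signal), log2 fold change, its standard error and Wald statistic (scores), p-value and adjusted p-value, per the file headers, whose names are those of DESeq2. The submitters' processing notes name HISAT2 2.1.0 and HTSeq 0.6.1p1. Build, annotation and counting settings are not given in the sources used here. Of 25265 identifiers, 25241 were found in GENCODE M21 (GRCm38), which gave coordinates, lengths and GC content, and the authors' annotation may differ. Promoter windows are from RefSeq.

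Counts were tested with edgeR 4.0.16 (limma 3.58.1, R 4.3.3): TMM scaling, the filterByExpr filter, a robust fit of genotype alone by quasi-likelihood, a two-sided F test and Benjamini-Hochberg adjustment over 21132 genes. The standard error is the absolute log2 fold change divided by the root of F. Intervals are at 95% with the fit's degrees of freedom. The fit was run on simulated data in which the changed genes had log2 fold changes far larger than those of the 8 genes. That run does not test differences of the size found here. Alternatives included DESeq2 1.42.0. Copies were sought with blastn 2.17.0. Replicate numbers were not taken to pair libraries, since their meaning is not labelled. The members and lists were chosen with earlier results of these data known. Named by rule were Ythdf2, the 8 genes, any called gene and the extremes of each pathway list, and the 5 nearest profiles. The list of other enzymes was set with further genes, which are not reported here: its counts and median are over the remaining 11.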

Additional observations from a re-analysis of the deposited data

How the results depend on the processing

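None of the 8 genes was called under any of the 13 alternatives that give calls, the replicate block and DESeq2 included. Signs changed in 8 of 112 values. With library totals alone Sqle stood at 0.0045 and Cyp51 at 0.0136, and the median over all genes at 0.067. With 1 library left out, Fdps ran from -0.0697 to 0.15, Sqle from -0.138 to 0.0077, Lss from -0.11 to 0.179 and Cyp51 from -0.11 to 0.00201. Fdps was below 0 without control replicate 2 (-0.0434) and without vKO-labelled replicate 1, Sqle above 0 without control replicate 1, Lss below 0 without control replicate 1 (-0.046) and vKO-labelled replicate 1, and Cyp51 above 0 without control replicate 2. The median of the 8 ran from -0.056 (without vKO-labelled replicate 1) to 0.165 (without vKO-labelled replicate 2). In these fits the lone library of a group is assumed to vary like the others.

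Calls over all genes, 59 higher and 24 lower, were less stable. They were 181 and 37 with library totals alone (83.0% higher, against 71.1%), 137 and 80 by a DESeq2 Wald test, 627 and 390 with the replicate block, and 625 and 702 when GC offset and block were combined (47.1% higher). Lower calls were 15 without robust estimation and 61 with the GC offset (56.7% higher). With 1 library left out, higher calls ran from 30 to 1048 and lower calls from 5 to 523. The fewest came without vKO-labelled replicate 1, the most higher calls without control replicate 1 and the most lower calls without control replicate 2. Across genes, libraries of the same number had deviations correlated at 0.0618, with only 2 pairs. Of the genes named for a fold change, Wt1 was called with all 4 libraries and no block, and the block kept it (adjusted p = 0.000544). Ythdf2 passed under GC offset plus block (0.40, adjusted p = 0.0082), Dhcr7 with the block, with both and without control replicate 1, Abca1 with the block, with both and without either control library, and Lipa with the block, with both (adjusted p = 0.0044) and without control replicate 2 (adjusted p = 0.039).

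List medians moved as follows. With library totals alone the isoprenoid branch stood at 0.22 and sterol sensing at 0.15. The median over all genes was 0.067 in that setting, against 0.0027 with TMM scaling. Under the GC offset, sterol sensing stood at -0.0419 and uptake, storage and efflux at 0.0772, and with the block added at -0.0408 and 0.0665. With 1 library left out, medians ran from -0.062 to 0.121 for the other enzymes, from 0.0563 to 0.189 for the isoprenoid branch and from 0.0318 to 0.186 for uptake, storage and efflux. Srebf2 stood at -0.127 under the GC offset, at -0.126 with the block added, and from -0.0992 (without control replicate 2) to 0.193 with 1 library left out. The causes were not tested. Depth limits Fdps, Mvd and Mvk most: their counts of 61 to 239 per library leave intervals that reach 0.664-fold and 1.71-fold.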

Other observations

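Farnesyl diphosphate also feeds branches that leave the sterol chain, and 9 of their enzymes were read in the same fit. By edgeR 0 of the 9 were called, against 0.393% of all genes tested, and 0 had an unadjusted p under 0.05, against 14.1%. DESeq2 called 0, against 1.32% of the genes to which it gave an adjusted p. The median log2 fold change was 0.16, with 7 of 9 above 0. Pdss2, a subunit of the enzyme that makes the side chain of ubiquinone, had the highest value at 0.40 (SE 0.22, adjusted p = 0.449 by edgeR, and 0.323 to 0.935 over its alternatives). Pggt1b, a subunit of a geranylgeranyl transferase that anchors proteins in membranes, had the lowest at -0.41 (SE 0.26, adjusted p = 0.529 by edgeR, and 0.292 to 0.954 over its alternatives). Without vKO-labelled replicate 1 the value of Pggt1b was -0.79 and without replicate 2 it was -0.10.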
